A study of Danio rerio with 19 samples.

Results

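Amplicons on chromosomes 3 and 5 of the zebrafish genome were nearly unmethylated in both ovaries and testes. They are chr3:54607068-54607497 and chr5:67992793-67993138 in the coordinates of GRCz11, and they were chosen by their mean methylation levels in these same fish, which lay near 0 in both sexes. The positions used were those with at least 10 reads in at least 5 ovaries and 5 testes. That gave 29 positions on chromosome 3 and 23 on chromosome 5, or 52 of the 150 positions of the series that met the same rule, which lie in 9 regions. Another region of chromosome 5, near position 44944720, is separate from the one described. Gene names are not given for these intervals, since no annotation of this build was used.

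Methylation was measured by sequencing amplicons of bisulfite-treated DNA from the gonads of 19 zebrafish. Of these, 9 gave ovaries and 10 gave testes. Both groups were AB fish, 90 days old, kept under control conditions in laboratory aquaria per the labels, which name no other treatment or genotype. Libraries are numbered from 1 to 19 across both sexes, and each was counted as 1 fish. A gonad holds germ cells and somatic cells together, so a level is an average over cell types that cannot be told apart here. Total methylation calls per fish ran from 488594 to 2235082. The median coverage of the well-covered positions lay between 1388.5 and 21612 reads per fish on chromosome 3, except in testis 14 with 19 reads, and between 3638 and 47223 reads on chromosome 5. Depth did not differ between the sexes beyond the spread between fish. The ratio of geometric means, ovary over testis, was 1.65 on chromosome 3 and 1.14 on chromosome 5 (two-sided exact permutation on log10 coverage, adjusted p = 0.908 each over the 9 regions, of which 22.2% passed). Without testis 14 the ratio on chromosome 3 was 0.900 (adjusted p = 0.916 by exact permutation).

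In vertebrates most CpG dinucleotides carry a methyl group on the cytosine, which is added by DNA methyltransferases and copied to the new strand at replication. The exceptions are short stretches rich in CpG, called CpG islands, which often lie at gene promoters and stay free of methylation in the germ line as well as in somatic cells. Bisulfite turns unmethylated cytosine into uracil, so the share of reads with C at a CpG gives the methylation level. A cytosine that escapes conversion, or a base error, is also read as methylated. No conversion control was analysed here, so levels below about 1% cannot be told apart from such background.

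Both amplicons were dense in CpGs. On chromosome 3, 26 of the 29 positions were well covered, with a median over fish of 8623 to 8652 reads at each. They spanned 403 bp, which is 6.45 per 100 bp, the highest density of well-covered positions in the 9 regions. The median distance between neighbours was 10 bp, the shortest 2 bp and the longest 82 bp. On chromosome 5, 19 of the 23 positions were well covered and spanned 318 bp, which is 5.97 per 100 bp, second of the 9. With tested positions 1 bp apart counted as 1, which left 27 on chromosome 3 and 23 on chromosome 5, the order of these amplicons was the reverse. The densities were then 6.28 per 100 bp on chromosome 3 and 6.65 on chromosome 5. Counted singly, all tested positions did not give this reversal. Between neighbours among the 19 well-covered positions of chromosome 5, the median distance was 15.5 bp, with a range from 2 to 57 bp. Well covered means a median coverage of at least 10% of the median of the region. Coverage was even along each amplicon, except that position 67992829 had a median of 6638 reads where the other 18 well-covered positions of chromosome 5 had 13120 to 13140. Not all fish shared this drop. In ovary 13 the position had 3415 reads against a median of 6964 over the well-covered positions. In ovary 2 no well-covered position had fewer than 4195 reads, against a median of 4284.

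Among the 9 regions, density and the mean level over well-covered positions are given as a description. The chromosome 23 region, with 5.11 well-covered positions per 100 bp, had a mean level of 0.558% in ovaries and 0.621% in testes and is the region most like these amplicons. The other chromosome 5 region was denser than that, at 5.54 per 100 bp, yet stood at 28.7% in ovaries and 6.43% in testes. The chromosome 24 region had 4.85 per 100 bp and 28.4% against 8.80%. The 4 regions with 3.90 or fewer per 100 bp had means from 37.5% to 74.6% in ovaries and from 82.5% to 95.9% in testes. Of these, the chromosome 7 region, at 74.6% in ovaries, had a median coverage of only 11 reads. Its means rest on 6 ovaries and 7 testes, and its density counts only positions that met the coverage rule. Low density thus went with high levels in these regions, but the densest 4 included 1 region that was not close to 0. The counts of CpGs are those listed in the files with enough reads.

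**Figure D1:**
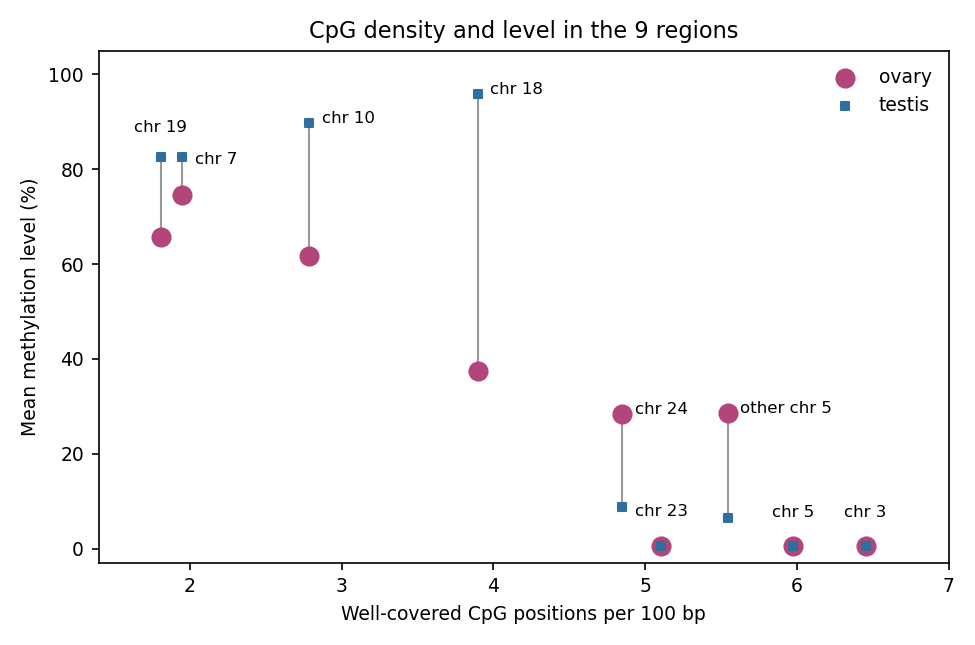
Mean methylation level (%) against the number of well-covered CpG positions per 100 bp in the 9 regions of the series, as the mean over ovaries (circles) and over testes (squares), joined by a line for each region. The chromosome 3, 5 and 23 regions lie between 0.522% and 0.621% in both gonads, at 5.11 to 6.45 positions per 100 bp. The chromosome 7 region rests on 6 ovaries and 7 testes at a median coverage of 11 reads.

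The average level differed between the sexes by less than the spread of fish on chromosome 5 and by a small, unsettled amount on chromosome 3. These levels were the reason for choosing the amplicons, which limits any difference between the sexes to small values. On chromosome 3 the mean over the 29 positions in each fish had a lowest value of 0.273%, a median of 0.612% and a highest value of 0.781% in ovaries. In testes these values were 0.405%, 0.475% and 0.667%. The groups overlapped, with ovary 11 below every testis, ovaries 5, 13 and 15 above every testis and the other 5 among them. The place of ovary 13 rested on thinly read positions. Over the well-covered positions alone it stood at 0.629%, below testis 3 at 0.693%. Ovaries averaged 0.605% ± 0.157 (SD, n = 9), testes 0.493% ± 0.0766 (SD, n = 10), a difference of 0.113 points (two-sided exact permutation, adjusted p = 0.0781 over the 9 regions, of which 66.7% passed). Without ovary 11 the difference was 0.154 points (adjusted p = 0.00481) and without testis 3 it was 0.132 points (adjusted p = 0.0374), both by exact permutation. Of the 19 runs with 1 fish left out, only these 2 passed. Over the well-covered positions alone the difference was 0.0908 points (exact permutation, adjusted p = 0.167). With reads pooled over the amplicon it was 0.0907 points (exact permutation, adjusted p = 0.168). Other coverage minimums gave 0.0680 to 0.0854 points (exact permutation, adjusted p from 0.181 to 0.508).

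On chromosome 5 the mean over the 23 positions ran from 0.327% through a median of 0.577% to 0.695% in ovaries and from 0.451% through 0.509% to 0.670% in testes. The ranges of the sexes overlapped almost fully. Ovaries averaged 0.542% ± 0.120 (SD, n = 9), testes 0.535% ± 0.0753 (SD, n = 10), a difference of 0.00701 points (exact permutation, adjusted p = 0.880). Summed over fish, 18745 of 3038205 calls at the well-covered positions were methylated in ovaries and 15178 of 2440290 in testes, or 0.617% and 0.622%. On chromosome 3 the sums were 12924 of 2233052 calls in ovaries and 11935 of 2273526 in testes, or 0.579% and 0.525%.

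The median of the measured levels differed between the sexes on chromosome 5 where the mean did not. All these medians lay below 1%, where levels cannot be told apart from background. The median level over the 23 positions had a lowest value of 0.188%, a median of 0.222% and a highest value of 0.458% in ovaries. In testes these values were 0.431%, 0.548% and 0.682%. Only ovary 11, at 0.458%, lay within the range of the testes; the other 8 ovaries lay below every testis. These medians averaged 0.250% ± 0.0833 (SD, n = 9) in ovaries, and in testes 0.565% ± 0.0924 (SD, n = 10), a difference of -0.315 points (two-sided exact permutation p = 2.17e-05, adjusted p = 3.90e-05 over the 9 regions, of which 77.8% passed). That mean and median part ways on this amplicon was known from earlier results of these data. A lower median of ovaries was not particular to chromosome 5. On chromosome 23 the ovary medians averaged 0.315% against 0.611% for testes. The difference was -0.296 points (exact permutation, adjusted p = 1.30e-04), and the sexes overlapped. The mean level there also passed, with a smaller difference of -0.0635 points (exact permutation, adjusted p = 0.0221).

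On chromosome 3 the same median ran from 0.160% through 0.222% to 0.576% in ovaries and from 0 through 0.394% to 0.484% in testes, where the 0 belongs to testis 14 with 19 reads. Ovaries 2 and 13 lay above every testis, ovary 6 lay above all but testis 7, and 5 of the other 6 ovaries lay under 0.23%. The difference was -0.0271 points (exact permutation, adjusted p = 0.693) and -0.0650 points without testis 14 (adjusted p = 0.267). In these fish the difference of measured medians between the sexes was not the same on the 2 amplicons. All these medians lay below 1%, within reach of background. The comparison was picked once the medians of both amplicons were known. Its p-values therefore describe these fish and do not establish a difference between the amplicons. Within a fish, chromosome 3 less chromosome 5 averaged 0.0652 points in ovaries and -0.223 points in testes (exact permutation p = 0.00401, adjusted p = 0.00801 over 2 such comparisons, with n = 9 and 10). Without testis 14 the p was 0.00740 (adjusted p = 0.0148 by exact permutation).

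**Figure D2:**
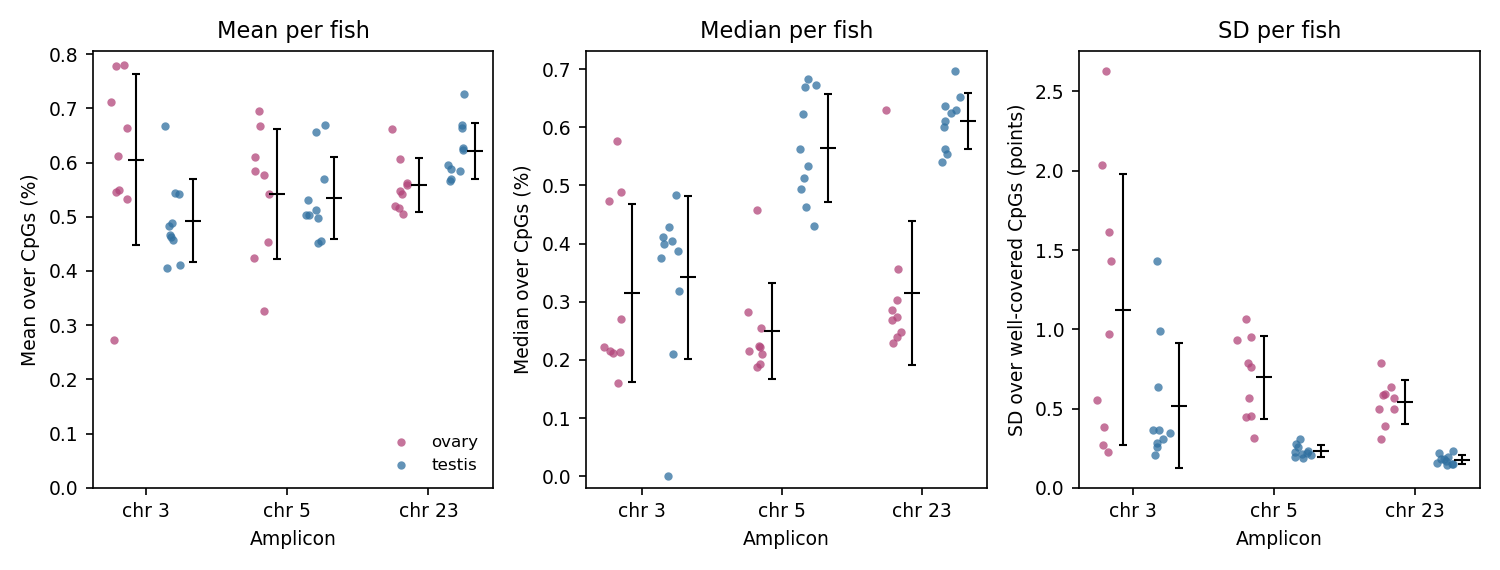
Mean, median and standard deviation of the CpG levels within each fish (points) for the chromosome 3, 5 and 23 amplicons, with bars at the mean ± SD over 9 ovaries or 10 testes; mean and median are in percent over all tested CpGs and the SD is in percentage points over well-covered CpGs. On chromosome 5 the means overlap, while 8 of 9 ovaries lie below every testis in the median and every ovary lies above every testis in the SD.

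On chromosome 5, the reads called methylated lay more at a few CpGs in ovaries than in testes. Most values counted here lay below 1%, where levels cannot be told apart from background. At the 19 well-covered positions of chromosome 5, 100 of the 171 values in ovaries were under 0.3% and 33 were at 1% or more. In testes 19 of 190 values were under 0.3% and 12 were at 1% or more. A level of 2% or more was reached 12 times in ovaries and 0 times in testes. An ovary had 4 to 16 of its 19 CpGs under 0.3% and a testis 0 to 4, and only ovary 11 and testis 9 met, at 4 each. On chromosome 3 levels of 1% or more were as common in testes, at 24 of 260 values (9.23%), as in ovaries, at 22 of 234 (9.40%). Without testis 14 the count in testes was 22 of 234. A level of 2% or more was reached there 10 times in ovaries and 5 times in testes, or 3 times without testis 14. Levels under 0.3% made up 54.7% of values in ovaries there and 38.8% in testes, or 32.9% without testis 14. The counts of chromosome 23 were like those of chromosome 5. In ovaries 91 of 171 values were under 0.3% and 30 were at 1% or more, and in testes 5 of 190 and 5.

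The SD of the level over these 19 CpGs was computed within each fish as a measure of this unevenness, after the pattern had been seen. In ovaries it was 0.312 at the lowest, 0.762 at the median and 1.06 points at the highest. In testes it was 0.186, 0.223 and 0.308 points. The sexes did not overlap. Ovaries averaged 0.698 ± 0.263 points (SD, n = 9), testes 0.232 ± 0.0379 points (SD, n = 10), a difference of 0.465 points (two-sided exact permutation p = 1.08e-05, the smallest p that 92378 splits allow, adjusted p = 2.44e-05 over the 9 regions). A difference in this SD passed in 88.9% of the regions, in many of which the levels themselves differ, so a call is not particular to chromosome 5. On chromosome 23, where the levels are as low, the SD was 0.541 ± 0.139 in ovaries (SD, n = 9) and 0.178 ± 0.0307 points in testes (SD, n = 10), again without overlap (adjusted p = 2.44e-05 by exact permutation). The SD from read counting, with reads taken as independent, was between 0.0331 and 0.127 points in ovaries and between 0.0552 and 0.123 points in testes on chromosome 5.

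On chromosome 3 the SD over 26 CpGs ran from 0.225 through 0.970 to 2.63 points in ovaries and from 0.207 through 0.354 to 1.43 points in testes. The sexes overlapped: ovaries 1, 2, 6, 11 and 13 lay among the testes at 0.970, 0.555, 0.269, 0.225 and 0.383 points. Testes 3 and 4 reached 0.634 and 0.988 points. The highest testis was testis 14, whose counting SD alone was 1.42 points. The difference was 0.606 points (exact permutation, adjusted p = 0.0579), and without testis 14 it was 0.708 points (adjusted p = 0.0316 by exact permutation). With all fish and without the highest CpG of each, it was 0.0535 points (adjusted p = 0.730 by exact permutation). On chromosome 5 the difference without the highest CpG of each fish was 0.339 points (adjusted p = 4.87e-05 by exact permutation). The difference of the SD between the sexes was not shown to differ between the amplicons (exact permutation p = 0.659, adjusted p = 0.659).

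**Figure D3:**
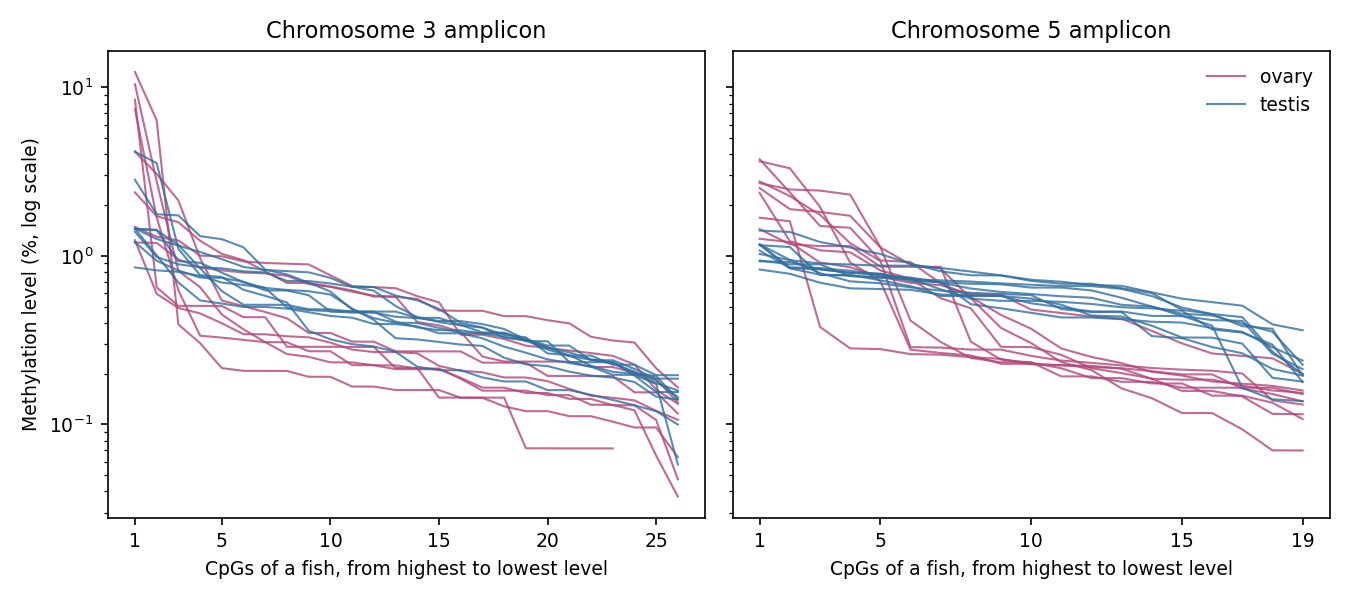
Methylation level (%, log scale) of the well-covered CpGs within each fish, sorted from the highest to the lowest, with 1 line per fish for 9 ovaries and 10 testes (chromosome 3 without testis 14, and with values at 0 not drawn). On chromosome 5 the lines of ovaries start as high as 3.74% and most drop under 0.3%, while those of testes start between 0.829% and 1.41% and stay flatter.

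The CpG that stood highest varied from fish to fish. It fell on chromosome 5 at 8 different positions in 9 ovaries and at 6 in 10 testes, where 67993018 was the highest in 4 fish. Position 67992891 was the highest in ovaries 2 and 18 and in testes 4 and 14. On chromosome 3 there were 7 different positions in 9 ovaries and 8 in 10 testes, or 7 without testis 14. Ovary 17 reached 3.74% at position 67993108 (729 of 19518 reads, Wilson 95% interval 3.48% to 4.01%), ovary 18 reached 3.63% at 67992891 and ovary 6 reached 2.76% at 67993065. The highest CpG of a fish held 11.7% to 27.2% of all its methylated calls on chromosome 5 in ovaries and 7.75% to 11.4% in testes. Intervals and floors given here cover counting error only.

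Chromosome 3 had the sharpest single levels. Ovary 15 stood at 12.3% at position 54607290 (1542 of 12529 reads, Wilson 95% interval 11.7% to 12.9%), while 7 of the other ovaries were at or under 0.397% there and ovary 11 was at 1.24%. Ovary 5 reached 10.4% at 54607217, ovary 18 reached 8.42% at 54607221 and ovary 17 reached 7.40% at 54607165. In these 4 ovaries that 1 CpG held 51.8% to 59.1% of all methylated calls of the amplicon. Neighbours 2 to 4 bp away stood far lower. In ovary 5, position 54607219 was at 0.189% and 54607221 at 0.271%, and in ovary 18, 54607219 was at 0.288% and 54607217 at 0.144%. In ovary 17, position 54607163 was at 0.214%, but 54607161 was at 1.69%, the highest of any ovary there. The nearest well-covered neighbour of 54607290 lies 10 bp away, at 54607280, and was at 0.160% in ovary 15. Among testes with more than 100 reads the highest level was 4.14%, in testis 4 at 54607320, where ovary 15 also had 6.37% and ovary 1 had 3.06%. Testis 14 had 1 methylated read of 19 at 2 CpGs and 0 at the other 24. A count of 0 of 19 reads allows a level of up to 15.8% (3 reads), and 1 of 19 has a Wilson upper bound of 24.6%.

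**Figure D4:**
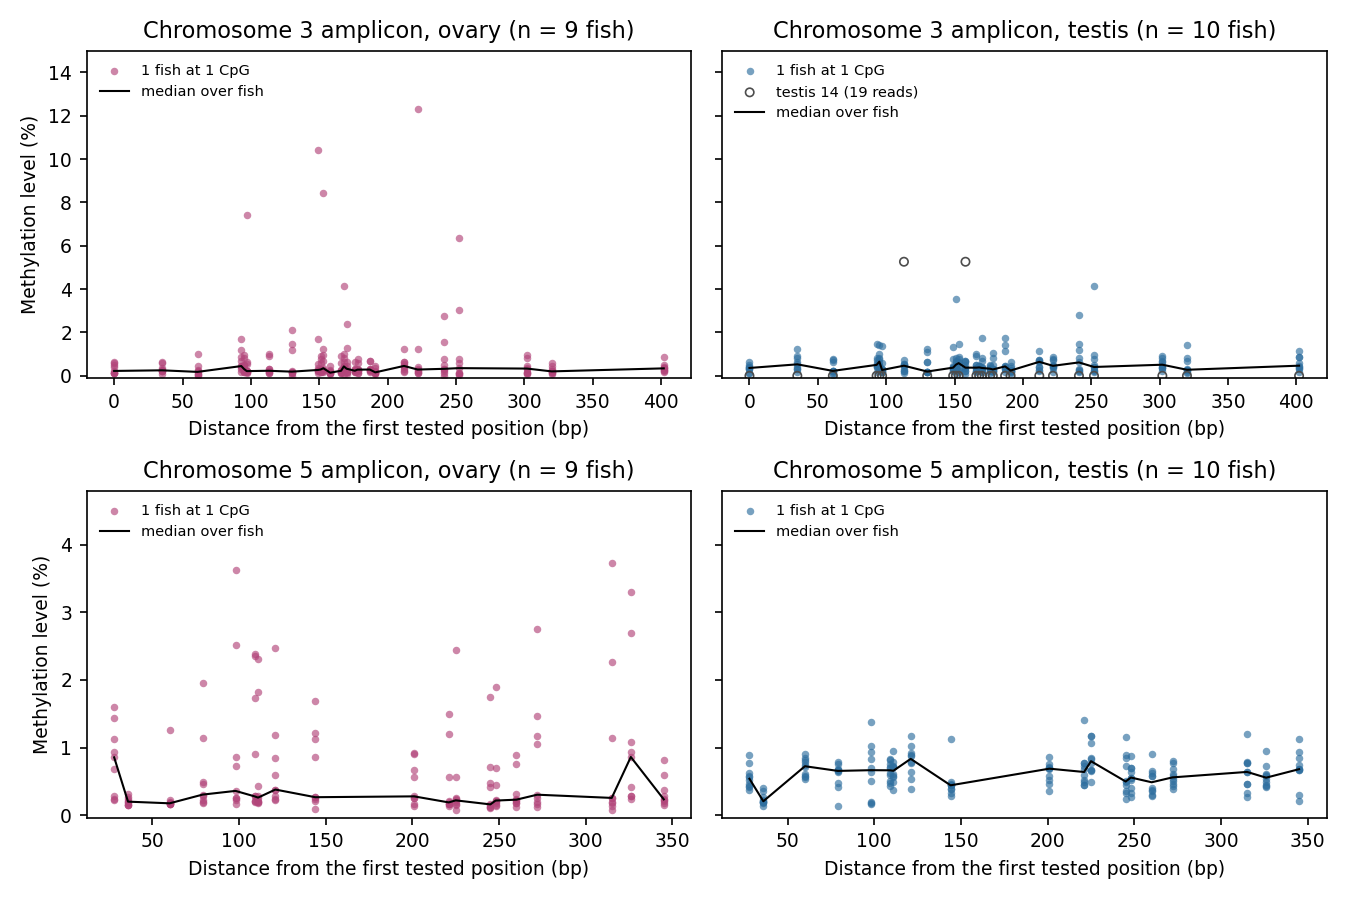
Methylation level (%) of every fish at every well-covered CpG against the distance from the first tested position (bp), for ovaries and testes on chromosomes 3 and 5; lines join the medians over fish, and testis 14 on chromosome 3 is drawn as open circles and left out of the line. Ovaries show single high points up to 12.3% on chromosome 3 and 3.74% on chromosome 5 above a low line.

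Per CpG, the measured level differed between the sexes at 3 of the 52 positions, all lower in ovaries. At each of them the medians of both sexes lay below 1%, where levels cannot be told apart from background. In the series 47.3% of the 150 positions, these 52 among them, passed and 23.3% passed with lower levels in ovaries. The share called here was smaller. The amplicons were chosen for low mean levels in both sexes of these same fish, which limits any difference between the sexes. The smaller share is therefore no separate finding about these positions. The test compared weighted means of fish by two-sided exact permutation with adjustment over the 150 positions. No position of either amplicon separated the sexes without overlap, against 22.7% of all positions. The same choice of amplicons bears on this contrast.

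Position 67992853 gave the clearest of these calls. Ovaries ran from 0.158% through 0.175% to 1.26%, and testes from 0.540% through 0.723% to 0.901%. Of the ovaries, 8 lay at or under 0.224% and ovary 11 lay above every testis. The weighted difference was -0.404 points (exact permutation, adjusted p = 0.0179), and it was -0.527 points without ovary 11 (adjusted p = 9.66e-05). With fish weighted by coverage it did not pass (-0.373 points, adjusted p = 0.200).

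Position 67993138, the last of the chromosome 5 amplicon, ran from 0.148% through 0.234% to 0.818% in ovaries and from 0.213% through 0.680% to 1.13% in testes. The ranges overlapped widely. The highest ovary, at 0.818%, lay above the median of testes, and the lowest testis, at 0.213%, lay below the median of ovaries. The weighted difference was -0.339 points (exact permutation, adjusted p = 0.0251). On chromosome 3, position 54607226 ran from 0.104% through 0.144% to 0.472% in ovaries and from 0.0997% through 0.428% to 5.26% in testes, where the highest value is 1 of 19 reads in testis 14. The weighted difference was -0.247 points (adjusted p = 0.0282 by exact permutation). It did not pass without ovary 5, 11 or 15 (adjusted p up to 0.0577), with a coverage minimum of 100 reads (adjusted p = 0.0516), with equal weights (0.0511) or with weights by coverage (0.113).

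The other named positions did not pass. Position 54607290 had the highest mean, 1.69% ± 4.00 (SD, n = 9) in ovaries, where ovary 15 stood apart, and 0.475% ± 0.270 (SD, n = 10) in testes (exact permutation, adjusted p = 0.840). The first position of chromosome 3, 54607068, was at 0.326% in ovaries and 0.325% in testes (adjusted p = 0.797). On chromosome 5 the highest mean was at 67993119, which stood at 1.12% ± 1.12 (SD, n = 9) in ovaries; the testis mean was 0.575% ± 0.162 (SD, n = 10) (exact permutation, adjusted p = 0.308). Ovaries 5 and 18 stood at 2.70% and 3.31% there. At 67993108 the means were 0.915% and 0.635% (adjusted p = 0.718).

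The median over fish of the measured level, below 1% at every well-covered position of both amplicons, was lower in ovaries at most of them. This held at 25 of the 26 well-covered positions of chromosome 3, all but 54607236, and at 17 of the 19 of chromosome 5, all but 67992821 and 67993119. Chromosome 23 had 17 of 19, and over the 9 regions it was 96 of 139. The median of these differences was -0.0952 points on chromosome 3, -0.351 points on chromosome 5, -0.330 points on chromosome 23 and -0.189 points over all. Means over fish were lower in ovaries at 16 of 26 and 11 of 19 positions. Ovary and testis means were hardly related across positions, with a Pearson r of 0.0175 over 26 positions of chromosome 3 and 0.197 over 19 of chromosome 5; positions of an amplicon share reads and fish, so these are descriptions.

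Position 67992829 had low levels in both sexes. Its median was 0.199% in ovaries and 0.205% in testes, with highest values of 0.308% and 0.406%. It is also the position with the lower coverage named above. It was the most even of the 19 well-covered positions of the amplicon by the Pearson chi-square over its degrees of freedom. That ratio, which is 1 when fish vary by read counting alone, was 1.56 in ovaries and 1.62 in testes. Over all 19 positions the median of that ratio was 113 in ovaries and 7.45 in testes. On chromosome 3 the medians were 22.0 and 17.3 over 26 positions, and the highest was 857, for ovaries at 54607290.

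Fish that were higher on 1 of the low amplicons were not shown to be higher on the others. Across fish of a sex, the mean levels of the chromosome 3, 5 and 23 regions gave 6 relations. In ovaries Pearson's r was -0.437 for chromosomes 3 and 5, -0.0636 for 3 and 23 and 0.307 for 5 and 23 (n = 9, exact permutation p from 0.244 to 0.855). In testes it was 0.123, 0.192 and 0.116 (n = 10, permutation p from 0.583 to 0.758). Spearman's rho lay between -0.550 and 0.317 (permutation p from 0.133 to 0.682). The adjusted p was 0.855 for each r and 0.682 for each rho. Without the 2 fish farthest from the median of the first region, r lay between -0.569 and 0.572.

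The remaining 7 positions were thinly read. On chromosome 3 these were 54607239, 54607281 and the last position, 54607497, with a median of 11, 15 and 65 reads. At 54607497 the mean was 0.598% in 8 ovaries and 0.249% in 9 testes, from at most 1 methylated read in a fish. On chromosome 5 they were the first position, 67992793, together with 67992831, 67992865 and 67992986, with 37 to 50 reads. No methylated read was found at 67992793, and none in a fish with 10 or more reads at 54607281. Position 67992865 reached 2.78% in ovary 6, which is 1 of 36 reads. Positions 54607239 and 54607281 each lie 1 bp after a well-covered position and may be the cytosine of the same CpG on the other strand, which was not checked; counted as 1 with their neighbours, they leave 27 CpGs on chromosome 3.

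A position just inside the coverage rule was 54607239, with 10 or more reads in 6 ovaries and 5 testes. The positions that missed it inside these intervals numbered 18 on chromosome 3 and 17 on chromosome 5, and none of them had more than 13 reads in a fish. They held 0 methylated of 305 reads on chromosome 3 and 3 of 283 on chromosome 5, all 3 at 67992844 in 1 fish.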

How the data were processed

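The authors deposited, per fish and cytosine, the count of methylated and of unmethylated reads, unnormalized, and the percent methylated computed from them. Per the submitters' processing notes, the build was GRCz11, and the tools were Bismark, Bowtie2, FastQC 0.11.6 and Trim Galore 0.4.5. Per the labels' protocols, 1000 ng of DNA per fish was converted and libraries were made with a Nextera XT kit. Counts in the table of the whole series were identical in all 4476 combinations of position and fish, and the deposited percent matched the counts in all of them (within 1e-06).

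From the counts, levels were computed at a coverage minimum of 10 reads. A region joined tested positions less than 1000 bp apart, and a fish needed 50% of its positions. CpGs were compared by exact permutation of the sex labels (92378 splits of 19 fish) on means with beta-binomial weights, and adjusted by Benjamini-Hochberg over 150 positions; region summaries and log10 coverage were adjusted over 9 regions, with a threshold of 0.05. The CpG test was also run on simulated counts, whose outcome is not given here. The nonzero differences simulated were larger than those of the CpGs called on these amplicons. A position of low coverage had under 10% of the region's median. The amplicons, tests and lists were chosen with earlier results of these data known; the SD within fish, the comparison between amplicons and the counts of values under 0.3% and at 1% or more were added after the data had been seen. Named CpGs were the first, the last, the highest and lowest mean, the largest SD, the highest single level and those past the threshold; positions named beyond these were chosen after their values were seen. Alternatives were other coverage minimums, weights and summaries, and leaving out fish. Of 171 pairs of fish, 11 on chromosome 3 agreed within sampling noise (chi-square), each with a fish under 100 reads, and 0 on chromosome 5, so all fish were counted. No molecular identifiers are described, so a read need not be a separate molecule. No genome sequence was used. Tests ran in scipy 1.17.1 and numpy 2.4.6 (Python 3.11.15), with pandas 2.3.3 for tables and matplotlib 3.10.9 for figures.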

Additional observations from a re-analysis of the deposited data

Results flagged for a closer look

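Values were marked where 1 fish stood apart from its sex by Dixon's criterion, which chance meets in about 1 in 20 groups. On chromosome 3, ovary 11 had the lowest mean level of the ovaries (0.273%) and testis 3 the highest of the testes (0.667%). At 54607226, ovary 6 stood at 0.472% and testis 14 at 5.26%, the latter from 19 reads. At 54607290, ovary 15 stood at 12.3%, and at 54607497, testis 12 stood at 1.69%, which is 1 read of 59. On chromosome 5, ovary 11 had a median level of 0.458% and a level of 1.26% at 67992853, and ovary 6 had 2.78% at 67992865, which is 1 read of 36. In all, 9 such values were found in 34 groups.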

How the results depend on the processing

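No paired analysis was possible because the sexes share no replicate number. The median difference on chromosome 5 kept its direction and its side of the threshold under every alternative run, including each fish left out (-0.341 to -0.302 points), as did the SD difference on chromosome 5 (0.419 to 0.513 points with 1 fish left out). The mean differences ran from 0.0850 to 0.154 points on chromosome 3 and from -0.0121 to 0.0340 points on chromosome 5 with 1 fish left out, and the median difference on chromosome 3 from -0.0650 to -0.00767 points. The depth ratio ran from 0.900 to 2.04 on chromosome 3 and from 0.975 to 1.32 on chromosome 5. CpGs past the threshold numbered 0 to 2 on chromosome 3 and 2 to 3 on chromosome 5 with 1 fish left out. On chromosome 3 there were 0 with a coverage minimum of 100 reads, with equal weights and with weights by coverage, and on chromosome 5 there was 1 with weights by coverage; the cause was not tested. The SD difference on chromosome 3 was 0.649 points over all tested CpGs (adjusted p = 0.0301 by exact permutation), 0.708 points without fish under 100 reads, and 0.418 to 0.719 points with 1 fish left out. It passed without ovary 6, 11 or 13 or testis 14. Coverage limits the values of testis 14 on chromosome 3 and of the 7 thinly read positions.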
